A study of Sus scrofa with 2 samples.

Results

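Gap junction genes encode connexins, the proteins whose hexamers in facing membranes dock into channels that pass ions and small metabolites between neighbouring cells. In skin, GJA1 (Cx43) is the connexin of basal and lower suprabasal keratinocytes and also couples fibroblasts and endothelial cells, whereas GJB2 (Cx26) and GJB6 (Cx30) are found in hair follicles and in wounded or hyperproliferative epidermis. GJB6 and GJB2 lie side by side in the genome, and mutations of either cause inherited disorders of skin and hearing.

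GJB6, GJB2 and GJA1 were looked up by symbol among the 31908 genes of a single-cell RNA-sequencing data set of pig skin, and 2 of the 3 symbols were listed. GJB6 (ENSSSCG00000036474) and GJA1 (ENSSSCG00000004241) are described here. No gene was listed under the symbol GJB2, which is therefore not analysed here. The genes were selected on the difference in GJB6 level between the 2 libraries, so that difference is given as a description with no test.

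Cells were dissociated from the whole skin, epidermis and dermis, of the back of healthy young male farm pigs. The fresh library was labelled with no treatment. The cryopreserved library was made from cells frozen in FBS with 10% DMSO and thawed. The protocol text of both samples describes freezing and the sorting out of dead cells, and the sources used here do not name the animal behind each library. Animal, library and treatment cannot be told apart, since each condition has 1 library. For the same reason no test was run. Each interval (95%) covers counting error only. Counts are unique molecular identifiers (UMIs), each standing for 1 captured transcript end. The fresh library had 4379 barcodes with 53271738 UMIs and the cryopreserved library 4860 barcodes with 42217632 UMIs. The maxima of the study's methods (4500 genes, 30000 UMIs and 10% mitochondrial UMIs per barcode) left 2775 fresh and 4223 cryopreserved cells with 32274985 and 36687009 UMIs, and medians of 11017 and 7945 UMIs per cell. The libraries shared 6 barcodes. Clustering gave 24 clusters, and 23 of them were named by marker genes as 9 cell classes, which include the keratinocytes, fibroblasts, endothelial cells and immune cells that skin holds.

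In the RefSeq annotation of Sscrofa11.1, GJB6 lies on chromosome 11 from 793276 to 800109 on the minus strand. Its transcripts have 3 exons, and all 786 coding bases are in 1 of them, from 793914 to 794699. GJB2 is the next gene on 1 side, 12023 bases away, and CRYL1, a crystallin-related dehydrogenase, lies 45361 bases away on the other. GJA1 lies on chromosome 1 from 40988818 to 41002129, also on the minus strand, with 2 exons and a coding exon of 1149 bases from 40990568 to 40991716.

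GJB6 was sparse and uneven. Over all barcodes, 514 GJB6 UMIs were found in 55 barcodes, 23 fresh and 32 cryopreserved. Of these, 17 fresh barcodes held 1 UMI and 2 held between 2 and 4. The remaining 4 fresh cells held 87, 17, 15 and 11 UMIs. In the cryopreserved library the top 11 cells held 88, 65, 49, 36, 25, 20, 13, 11, 11, 8 and 6 UMIs. These 15 cells with at least 5 UMIs, called GJB6-rich here, carried 462 of the 514 UMIs (89.9%). The minimum of 5 was chosen after the counts were seen. The lowest cell inside it had 6 UMIs, and the highest outside it had 4.

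**Figure D1:**
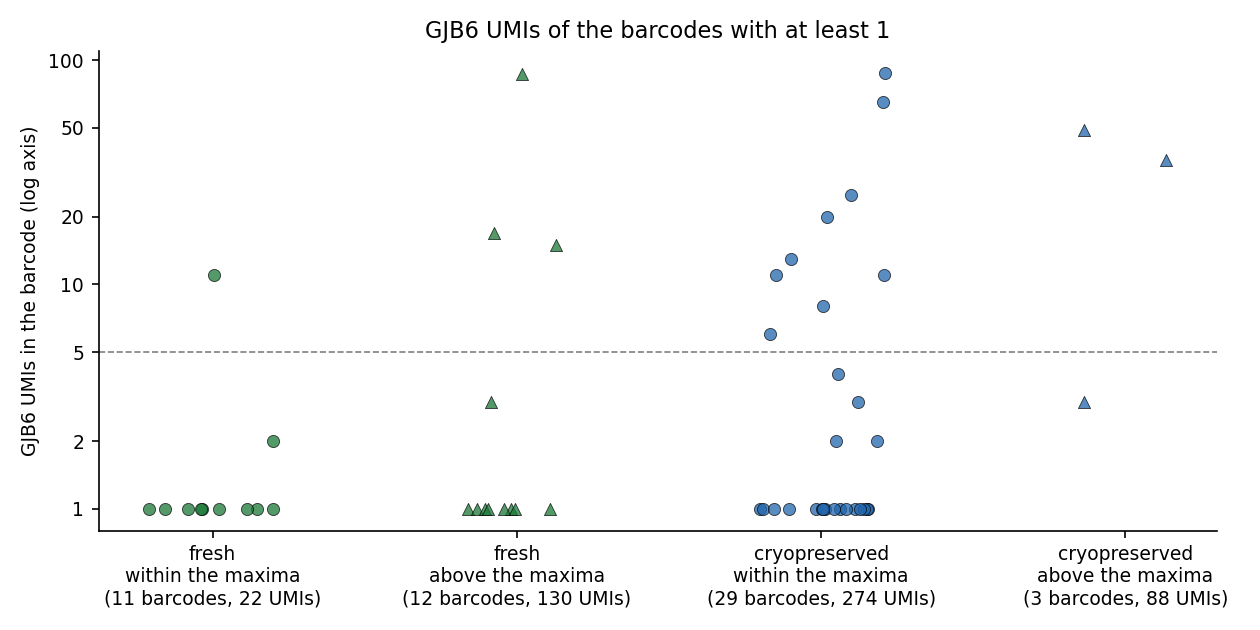
GJB6 UMIs (log axis) of each barcode with at least 1, by library and by whether the barcode was within the gene, UMI and mitochondrial maxima (circles) or above one of them (triangles). The dashed line marks 5 UMIs. Of the 4 fresh cells above it, 3 exceed a maximum, and of the 11 cryopreserved cells above it, 9 are within the maxima.

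The maxima on genes and UMIs acted on the GJB6-rich cells of the libraries unequally. Within the maxima, 1 of the 4 fresh and 9 of the 11 cryopreserved GJB6-rich cells were left. The 5 cells removed all had more than 4500 genes, 2 of them (both fresh) also had more than 30000 UMIs, and 0 of the 15 exceeded the mitochondrial limit. The fresh cell with 87 GJB6 UMIs had 5453 genes and 30089 UMIs. The cryopreserved cell with 88 GJB6 UMIs had 4215 genes and 23562 UMIs and was kept. Scrublet, a doublet caller run on the cells within the maxima, marked 0 of the 10 kept. Fresh barcodes above a maximum were 36.6% of the barcodes and 39.4% of the UMIs, but held 130 of the 152 fresh GJB6 UMIs (85.5%). For GJA1 the same barcodes held 40.9% of the fresh UMIs. Of the 130 GJB6 UMIs, 129 were in the 600 barcodes above the gene or UMI maximum, which held 35.2% of the fresh UMIs. The 1004 above the mitochondrial limit held 1. Among fresh keratinocyte-like barcodes, those above a maximum held 51.1% of the UMIs, 86% of the GJB6 UMIs and 52.1% of the GJA1 UMIs. Cryopreserved barcodes above a maximum were 13.1% of the barcodes and held 88 of 362 GJB6 UMIs (24.3%) and 14.4% of the GJA1 UMIs. Among cryopreserved keratinocyte-like barcodes, those above a maximum held 18.5% of the UMIs, 24.6% of the GJB6 UMIs and 18.3% of the GJA1 UMIs.

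As sums over a library, GJB6 had 22 fresh and 274 cryopreserved UMIs within the maxima, or 0.673 and 7.57 counts per 1000000 UMIs (CPM, with TMM scaling). The log2 ratio of the CPM, cryopreserved over fresh, was 3.49 (interval 2.86 to 4.19), the third highest of 11692 genes with at least 200 UMIs. Of those genes, 0.753% were at least 2-fold higher in the cryopreserved library. Over all barcodes GJB6 had 152 and 362 UMIs, 2.85 and 8.60 CPM. The log2 ratio was then 1.59 (interval 1.32 to 1.88), rank 16 of 12355 genes, of which 0.874% were at least 2-fold higher. A sum over a library mixes the number of cells of a type with the RNA per cell, which the values per class below separate in part.

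The size of the ratio varied with the GJB6-rich cells. These were defined by the same GJB6 counts, so the ratios without them are descriptions only. Within the maxima, the single fresh GJB6-rich cell held 11 of the 22 fresh UMIs, and the highest cryopreserved cell 32.1% of those of its library. Over all barcodes the highest fresh cell held 57.2% and the highest cryopreserved cell 24.3%. Without all GJB6-rich cells, 11 fresh and 27 cryopreserved UMIs were left within the maxima, a log2 ratio of 1.15 (interval 0.09 to 2.31). Over all barcodes without them, 22 and 30 UMIs gave 0.79 (interval -0.05 to 1.65), which includes 0. Without the highest cell of each library alone, the log2 ratio was 3.93 within the maxima, and 2.42 over all barcodes.

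**Figure D2:**
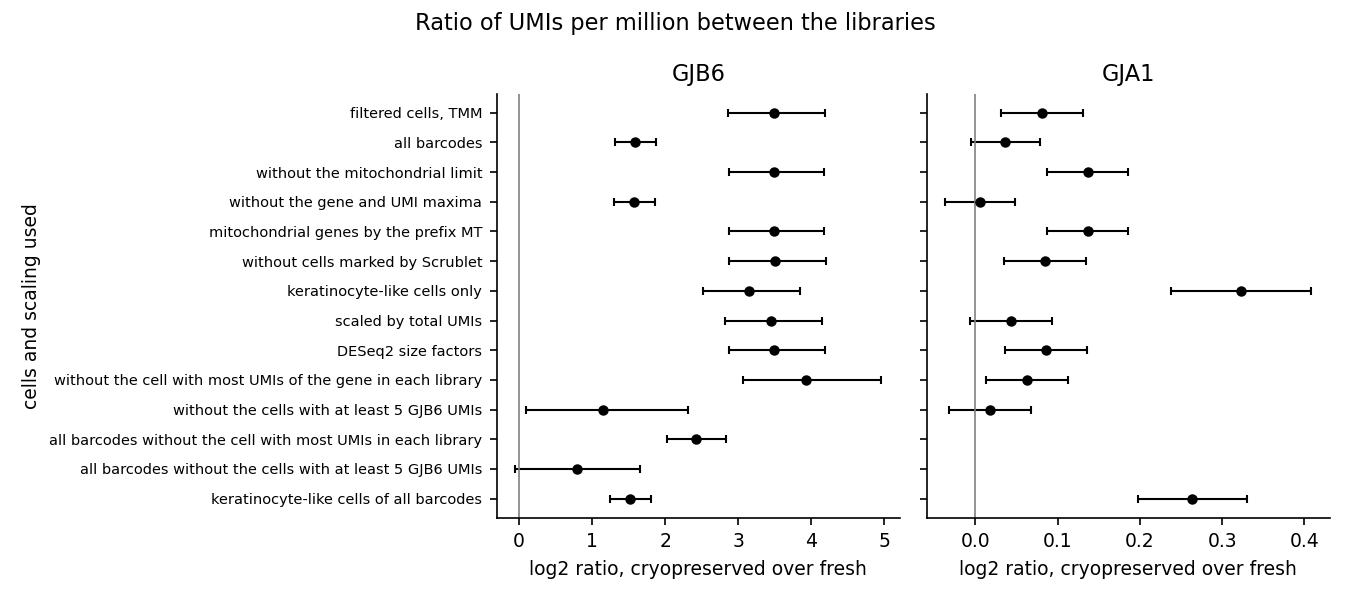
Log2 ratio of CPM, cryopreserved over fresh, of GJB6 and GJA1 for each set of cells and each scaling. Points are the ratios and bars the 95% counting intervals, each panel has its own axis, and settings without a point were not computed for GJA1. GJB6 runs from 0.79 to 3.93 and GJA1 from 0.0058 to 0.32.

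GJB6 was a keratinocyte transcript in both libraries. Of the 296 UMIs within the maxima, 292 were in keratinocyte-like cells, at 2.84 CPM (interval 1.78 to 4.31) in 530 fresh cells and 25.4 CPM (interval 22.4 to 28.6) in 1058 cryopreserved cells. Over all barcodes, keratinocyte-like cells had 9.76 CPM (interval 8.26 to 11.5) in the fresh and 28.2 CPM (interval 25.3 to 31.2) in the cryopreserved library. T or NK-like cells held 2 UMIs and fibroblast-like cells 2, all in the cryopreserved library. Endothelial-like, lymphatic-like, SMC-like (smooth muscle), mast-like and both myeloid classes held 0. Among keratinocyte-like cells a GJB6 UMI was present in 11 of 530 fresh cells (2.08%, interval 1.04 to 3.68%) and 25 of 1058 cryopreserved ones (2.36%, interval 1.53 to 3.47%), at median depths of 14857 and 9697 UMIs. In T or NK-like cells, which should lack the gene, the shares were 0 of 145 fresh cells, which allows up to 2.07%, and 2 of 254 cryopreserved cells (0.787%), at median depths of 6512 and 4813 UMIs. Cells were also thinned to 1000 UMIs, which left out 27 fresh and 32 cryopreserved cells of all classes with fewer. The keratinocyte-like shares were then 0.380% (interval 0.0460 to 1.36%) and 0.953% (interval 0.458 to 1.75%). Thinned T or NK-like cells had 0 of 145 and 0 of 254.

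Within the keratinocyte-like cells, GJB6 was concentrated in cluster 9, of 103 fresh and 239 cryopreserved cells. It had 15 fresh and 260 cryopreserved UMIs there, or 11.7 CPM (interval 6.55 to 19.3) and 121 CPM (interval 106 to 136). Over all barcodes, the cluster that held most GJB6-rich cells had 135 and 296 UMIs, or 65.5 CPM (interval 54.9 to 77.6) and 112 CPM (interval 99.8 to 126). Cluster 10, led by the basal keratin KRT15, had 4 and 7 UMIs (2.37 and 3.57 CPM). Clusters 2, 14 and 19 had between 0 and 2 UMIs per library, and the share of their cells with a UMI had intervals that reached that of the T or NK-like cells. The fresh intervals of cluster 10 (0.923 to 8.38%) and cluster 9 (1.07 to 9.65%) also reached the fresh T or NK-like limit. The cryopreserved shares were 2.87% (interval 1.06 to 6.14%) in cluster 10 and 6.69% (interval 3.87 to 10.6%) in cluster 9. The GJB6-rich share of keratinocyte-like cells was 1 of 530 fresh (0.189%, exact interval 0.00478 to 1.05%) and 9 of 1058 cryopreserved cells (0.851%, interval 0.390 to 1.61%) within the maxima. Over all barcodes it was 4 of 812 (0.493%, interval 0.134 to 1.26%) and 11 of 1143 (0.962%, interval 0.481 to 1.72%).

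**Figure D3:**
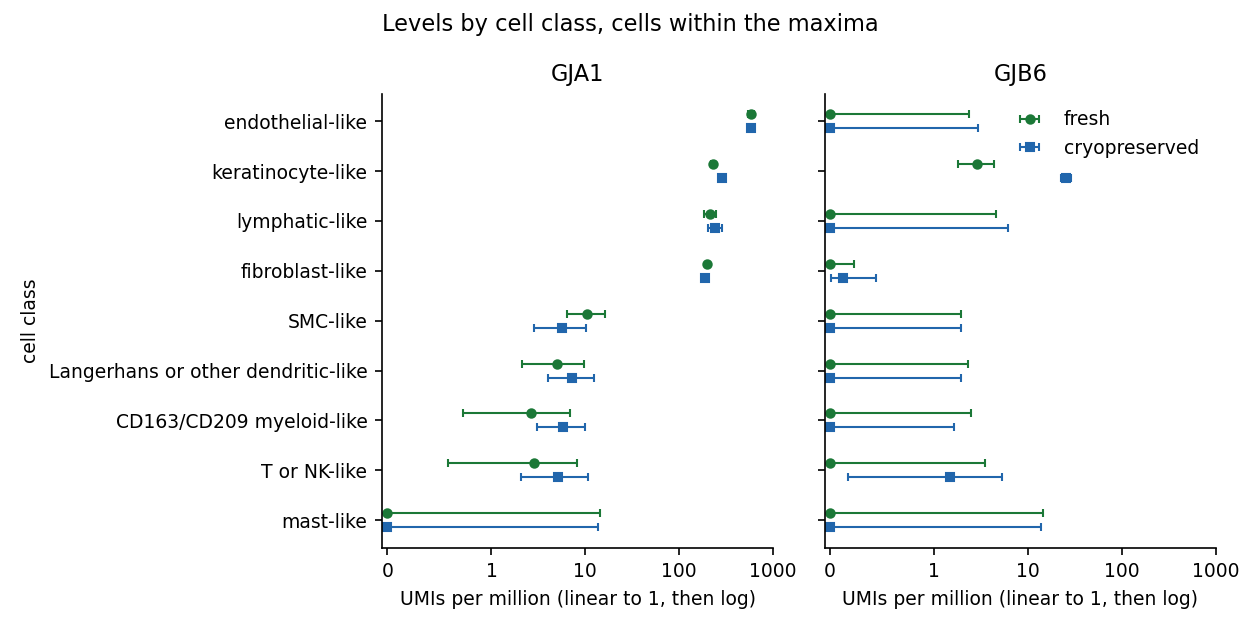
CPM of GJA1 and GJB6 in each cell class and library within the maxima, on an axis that is linear to 1 and logarithmic above. Points are UMIs of the gene per 1000000 UMIs of the class and bars the 95% Poisson intervals. GJA1 is high in endothelial-like, keratinocyte-like, lymphatic-like and fibroblast-like cells, and GJB6 stands above its floor in keratinocyte-like cells.

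GJA1, in contrast, was abundant and spread over 4 cell classes. Over both libraries it was highest in endothelial-like cells at 584 CPM (interval 556 to 613). Keratinocyte-like cells followed at 262 CPM (interval 255 to 269), lymphatic-like cells at 226 CPM (interval 202 to 252) and fibroblast-like cells at 194 CPM (interval 189 to 199), and none of these neighbouring intervals overlap over both libraries. In the fresh library alone, lymphatic-like cells (interval 183 to 248) overlapped both keratinocyte-like and fibroblast-like cells. In the cryopreserved library alone, lymphatic-like cells (interval 204 to 285) overlapped keratinocyte-like cells. The other classes were far lower. SMC-like cells had 8.05 CPM, Langerhans or other dendritic-like cells 6.22, CD163/CD209 myeloid-like cells 4.54 and T or NK-like cells 4.13, with overlapping intervals, and mast-like cells had 0 UMIs of 528474. By number, fibroblast-like cells held 47.7% of the GJA1 UMIs, keratinocyte-like cells 36.7% and endothelial-like cells 12.5%.

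The libraries had nearly the same GJA1 level. Within the maxima there were 6041 fresh and 7074 cryopreserved UMIs, or 185 and 195 CPM with TMM scaling, a log2 ratio of 0.08 (interval 0.03 to 0.13). Over all barcodes there were 10216 and 8261 UMIs, or 191 and 196 CPM, with a log2 ratio of 0.04 (interval -0.01 to 0.08). With scaling by total UMIs the interval within the maxima also included 0 (log2 ratio 0.04, interval -0.01 to 0.09).

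By class, the fresh and cryopreserved values of GJA1 were 582 and 586 CPM in endothelial-like cells and 214 and 242 CPM in lymphatic-like cells, with overlapping intervals. In fibroblast-like cells they were 200 CPM (interval 193 to 207) and 189 CPM (interval 182 to 196), a log2 ratio of -0.08 (interval -0.16 to -0.01). In keratinocyte-like cells they were 228 CPM (interval 217 to 239) and 287 CPM (interval 276 to 297), a log2 ratio of 0.33 (interval 0.24 to 0.42). In 2 of the 5 keratinocyte-like clusters the interval excluded 0. In cluster 14, led by the differentiation keratins KRT1 and KRT10, GJA1 had 222 and 359 CPM (log2 ratio 0.69, interval 0.49 to 0.89), and in cluster 9 it had 485 and 585 CPM (log2 ratio 0.27, interval 0.13 to 0.41). In cluster 9 the 9 cryopreserved GJB6-rich cells held 326 of the 1260 GJA1 UMIs. Without the GJB6-rich cells of both libraries, an alternative added after seeing the data, cluster 9 had 479 and 456 CPM (log2 ratio -0.07, interval -0.22 to 0.08), and all keratinocyte-like cells had 226 and 259 CPM (log2 ratio 0.19, interval 0.11 to 0.28). For clusters 2, 10 and 19 the interval of the log2 ratio included 0. The fresh keratinocyte-like cells were deeper, with a median of 14857 against 9697 UMIs, and the part of this in the difference was not tested.

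The share of cells with a GJA1 UMI followed depth. Unthinned, it was 78.9% (fresh) and 75.8% (cryopreserved) among keratinocyte-like cells. Thinned to 1000 UMIs it was 15.2% (interval 12.2 to 18.5%) and 21.3% (interval 18.8 to 23.9%), with intervals that do not overlap. Thinned to 2000 UMIs it was 35.5% (interval 31.4 to 39.8%) and 36.7% (interval 33.8 to 39.7%), with intervals that overlap. Thinning to 2000 UMIs left out 76 fresh and 200 cryopreserved cells of all classes with fewer. Thinning draws UMIs at random, and no spread over repeated draws is given. Thinned to 1000 UMIs, endothelial-like cells had 37.8% and 33.6%, fibroblast-like cells 13.8% and 15.7%, and lymphatic-like cells 13.1% and 20.1%, each pair with overlapping intervals. T or NK-like cells, as background, had 1 of 145 fresh (0.690%) and 0 of 254 cryopreserved cells.

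Across the keratinocyte-like clusters GJA1 was lowest in clusters 10 and 19 (dividing cells) at 110 to 128 CPM, and highest in cluster 9. Cluster 14 came next after cluster 9 in both libraries, but in the fresh library its interval overlapped that of cluster 2.

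**Figure D4:**
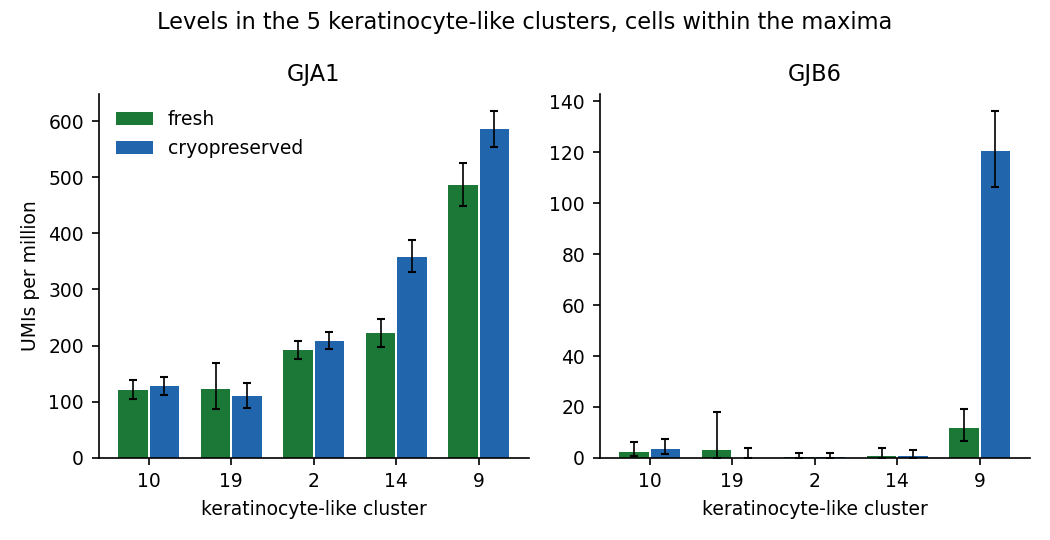
CPM of GJA1 and GJB6 in the 5 keratinocyte-like clusters of each library within the maxima, with 95% Poisson intervals. Cluster 9 holds the highest GJA1 level (485 and 585 CPM) and most GJB6 UMIs (15 of 22 fresh and 260 of 270 cryopreserved).

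By UMI count, the cell with most GJB6 in each library was also the one with most GJA1. In the fresh library it had 125 GJA1 and 87 GJB6 UMIs, and the next 4 barcodes by GJA1, with 59, 54, 49 and 49 UMIs, held 3, 0, 0 and 0 GJB6 UMIs. In the cryopreserved library the top 5 cells by GJA1 had 141, 113, 49, 40 and 33 UMIs, and all 5 were GJB6-rich, with 88, 49, 65, 8 and 36 GJB6 UMIs. By CPM the order differed, since the cryopreserved cell highest in GJB6 (4444 CPM) had 3350 GJA1 CPM and other cells had more. All 15 GJB6-rich cells had GJA1 UMIs. Over all barcodes, where these cells were clustered with the rest, 14 of the 15 fell in 1 keratinocyte-like cluster and the other in a cluster of dividing keratinocyte-like cells. Their GJA1 level ran from 450 to 7759 CPM per cell with a median of 1717, against a median of 329 in the other 404 cells of that cluster and 137 in 1536 other keratinocyte-like cells. The 4 fresh cells had a median of 1184 CPM and the 11 cryopreserved cells 2603, against 231 and 367 in the rest of the cluster. All 15 lay above the median of the rest, and 10 above its percentile 90. The levels of the groups overlap, and the highest cell of the rest had 13468 CPM. That cell had 1188 UMIs in all and 1 of GJB6 (842 CPM). The next, at 9524 GJA1 CPM, had 945 UMIs and 3 of GJB6 (3175 CPM). The minimum of 5 UMIs thus left out shallow cells with GJB6 CPM in the range of the GJB6-rich cells. Among cells of the rest with 0 GJB6 UMIs, the highest had 3172 GJA1 CPM.

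Of the pannexin PANX1, which forms channels in a single membrane, the GJB6-rich cells had 7.70 CPM (interval 0.933 to 27.8) against 43.3 in the rest of the cluster. GJB6-rich cells were deeper than the rest of the cluster, with a median of 14627 UMIs against 10232. By library the medians were 28991.5 against 12504 (fresh) and 13048 against 8560 (cryopreserved). The shares of cells with a UMI given for other genes below were not thinned, and the part of depth in them was not tested.

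**Figure D5:**
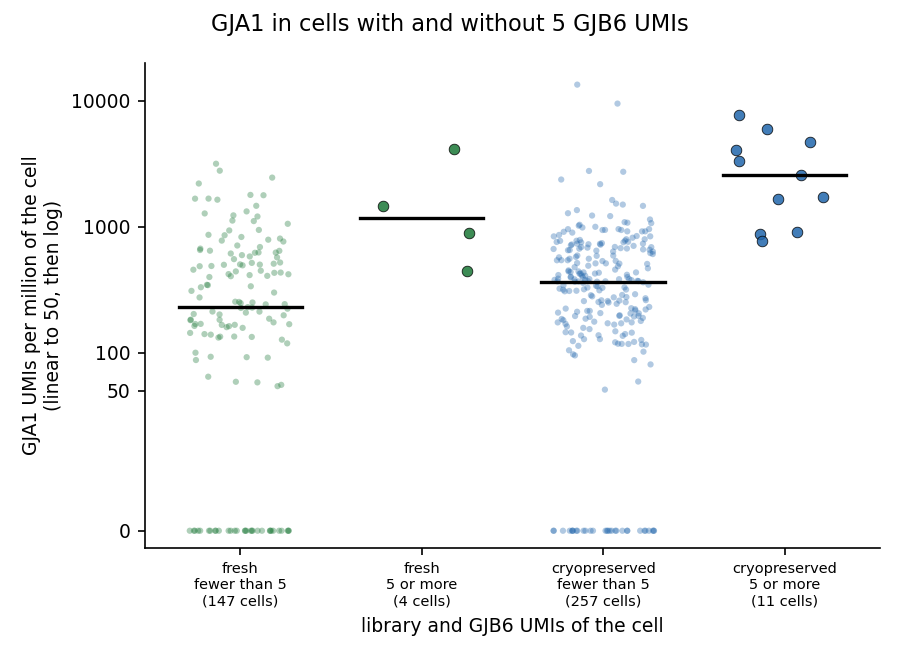
GJA1 CPM per cell, linear to 50 and logarithmic above, in cells with at least 5 GJB6 UMIs (large points) and in the other cells of their cluster over all barcodes (small points), by library. Black lines are medians. GJA1 medians are 1184 and 2603 CPM in the GJB6-rich cells and 231 and 367 in the others.

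In the wider set, most keratinocyte-like cells had a GJA1 UMI, both with and without a GJB6 UMI. Within the maxima, 10 fresh keratinocyte-like cells had UMIs of both genes, 1 had GJB6 alone, 408 GJA1 alone and 111 neither. The cryopreserved numbers were 21, 4, 781 and 252. GJA1 was thus found in 90.9% and 84.0% of the cells with a GJB6 UMI, and in 78.6% and 75.6% of those without. The part of depth in these shares was not tested.

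Several hair follicle genes and several sebaceous gland genes were higher in the GJB6-rich cells. Of the basal genes found, all but KRT5 were lower by mean CPM. The values that follow are means of the CPM of single cells, first in the 15 cells and then in the other 404 cells of their cluster. LHX2, a transcription factor of hair follicle stem cells, had 196 and 29.5 CPM and was found in 13 of 15 cells and 45 of 404. SOX9, of the outer root sheath and bulge, had 387 and 206 CPM, and LGR5, a follicle stem cell receptor, 145 and 62.8. KRT25, an inner root sheath keratin, was found in 2 of 15 cells, both of them fresh, and 0 of 404. KRT75 and HOXC13 were each in 2 of 15, against 1 and 7 of 404. DLX3 had 32.0 and 23.8 CPM. KRT79 and LEF1 were found in 0 of 15, against 13 and 9 of 404. PTHLH, a secreted hormone-like factor of follicle keratinocytes, was found in 0 of 15 and 148 of 404. Of the basal genes, KRT5 was kept, in 14 of 15 cells, at 17970 and 9656.5 CPM. The basement membrane collagen COL17A1 was found in 2 of 15 against 361 of 404, and KRT15 in 4 of 15 against 274 of 404. ITGB4 was found in 3 of 15 against 277 of 404. DST and LAMB3 had 149 and 56.1 CPM against 392 and 117. TP63, the master regulator of stratified epithelium, and the integrin ITGA6 were each found in 13 of 15 cells, at 637 and 183 CPM against 934 and 730. Of the differentiation genes, KRT1 was in 0 of 15 and 72 of 404, whereas KRT10 and the desmosomal cadherin DSG1 were each in 11 of 15, at 96.3 and 235 CPM against 639 and 346. The hair keratins KRT35 and KRT85 and the inner root sheath keratins KRT71, KRT27 and KRT28 had no UMI in either set.

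As whole lists, the 16 hair follicle markers found summed to a median of 860 CPM in the 4 fresh and 756 CPM in the 11 cryopreserved GJB6-rich cells, against 277 and 324 in the rest of the cluster. Other keratinocyte-like cells had 78.4 and 80.5 CPM, so the rest of the cluster was itself higher in these markers. The 8 epidermal stem markers summed to medians of 4555 CPM (fresh) and 19758 CPM (cryopreserved) against 12260 and 12739, so the sums differed in direction between libraries. KRT5 made up most of this sum, with means of 17970 CPM in the 15 cells and 9656.5 in the other 404. Each of the other markers had a lower mean in the 15 cells. The 8 markers of differentiated keratinocytes had 158 and 406 CPM against 406 and 583. The 11 sebaceous gland markers summed to 731 and 672 CPM against 209 and 246. Other keratinocyte-like cells had 288 and 307 CPM, above the rest of the cluster. By mean CPM in the 15 cells and the other 404, HSD17B2 (484 and 27.7), FASN (207 and 90.8) and MGST1 (101 and 20.3) were higher. SCD, PPARG, FA2H and SOAT1 were also higher, and PLIN2 (92.2 and 152) and DGAT2 (0 and 2.54) were lower. AWAT2 and ELOVL3 were at 0 in both sets. The 8 sweat gland markers summed to 60.8 and 137 CPM against 60.2 and 0. By mean CPM, KRT8 (221 and 19.5, in 4 of 15 cells) and KRT7 (59.6 and 2.71, in 3 of 15) were higher. AQP5 and KRT18 were at 0, and each was in only 1 of the other 404 cells. The 8 SMC markers had medians of 225 and 153 CPM against 0 and 0, with a highest cell of 5515 CPM. The 9 fibroblast markers were at the low level of the rest of the cluster, with medians of 498 and 305 CPM against 366 and 341, while fibroblast-like cells had 72033 and 82296. The part of these lists in the GJB6 level was not tested.

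Other genes were ranked by the ratio of mean CPM in the GJB6-rich cells to that in the rest of the cluster, with 20 CPM added to each, among genes in at least 8 of the 15. This list was made after the cells were seen and describes them only. After GJB6 itself came CA2, carbonic anhydrase (801 and 23.1 CPM), LGALS1, galectin (2239 and 154 CPM), and CTNND2, a catenin of cell junctions (936 and 61.1 CPM). HSD17B2, which inactivates sex steroids and is on the sebaceous list, followed with 484 and 27.7 CPM. NUPR1, a stress-induced nuclear factor (803 and 64.7 CPM), and APOE, a lipid carrier (407 and 26.3 CPM), came next. TAGLN and TPM1, which bind actin, had 511 and 39.2 CPM and 1020 and 127 CPM. ID4 and TBX1, regulators of transcription, were in 14 and 13 of the 15 cells, and in 76 and 25 of the 404.

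The genes whose pattern was most like each connexin were taken over 40 profiles, 20 clusters in each library, by Pearson's r of log2(CPM + 1) among 11691 genes. Profiles of 1 library share its depth and base composition. For GJB6 they were ENSSSCG00000002972 (0.78), ESRRG (0.76), CCER2 (0.75), HSD17B2 (0.74) and ENSSSCG00000051588 (0.72). Of the 704 cryopreserved UMIs of ENSSSCG00000002972 and the 806 of CCER2, 703 and 794 were in a single cell each, which held 0 GJB6 UMIs. HSD17B2 had 191 cryopreserved UMIs, 66 of them in the cell with 88 GJB6 UMIs. For GJA1 they were AFDN (0.93), a scaffold of adherens junctions, CPNE8 (0.88), PLXDC2 (0.88), YES1 (0.87), a kinase of the SRC family, and WWTR1 (0.87), a coactivator of the Hippo pathway. Between GJB6 and GJA1 the r was 0.27.

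Of 24 connexin and pannexin symbols sought, 21 were listed, and 8 of these had at least 50 UMIs over all barcodes and 5 had 0. Of the 6 with at least 200 UMIs within the maxima, GJB6 alone was past a 2-fold difference between the libraries, against 1.07% of all genes in either direction, and the median log2 ratio was 0.16, against 0.03 for all genes. GJA4 (Cx37), a vascular connexin, was at 668 and 848 CPM in SMC-like cells, which held 95.2% of its UMIs. GJC1 (Cx45), also of vessels, was at 359 and 412 CPM in SMC-like cells and at 53.0 CPM in endothelial-like cells of both libraries. GJA5 (Cx40), with 110 and 63 UMIs, was below the minimum of 200 and had 93.1% of its UMIs in SMC-like cells. PANX1 differed little between the libraries, with 14.8 and 15.4 CPM.

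Of 20 genes whose proteins bind, phosphorylate or degrade connexins, 17 were listed and 16 passed the minimum. None was past a 2-fold difference within the maxima, against 1.07% of all genes. Their log2 ratios within the maxima were positive for 8 and negative for 8, with a median of -0.01 and a range from -0.50 to 0.41. Over all barcodes 4 were positive and 12 negative, with a median of -0.11 and a range from -0.46 to 0.49 (CDH2). Within the maxima the lowest was CAV1, the coat protein of caveolae (72.0 and 51.0 CPM). The highest there was PRKCD, a kinase that phosphorylates connexins (11.0 and 14.6 CPM). TJP1, the scaffold that binds the tail of Cx43, had 108 and 88.7 CPM, and CDH1, the cadherin of epidermal junctions, 190 and 237 CPM. Over all barcodes CDH1 had 249 and 247 CPM (log2 ratio -0.01). Of 14 genes of stressed or hyperproliferative keratinocytes, 2 were listed by symbol. S100A12 had 83 and 533 UMIs (log2 ratio 2.54), with 284 of the 533 in 1 cryopreserved cell, and over all barcodes 418 and 930 UMIs (7.83 and 22.1 CPM). S100A8, with 13 and 12 UMIs, was below the minimum.

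Of the genes beside the connexins, CRYL1 did not share the difference of GJB6. It had 59.4 and 65.2 CPM (log2 ratio 0.13) and was highest in fibroblast-like cells at 84.1 and 89.3 CPM, with 41.4 and 49.96 CPM in keratinocyte-like cells. HSF2 and TBC1D32, the neighbours of GJA1, had log2 ratios of -0.26 and -0.23.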

How the data were processed

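Single-cell RNA sequencing of 1 fresh and 1 cryopreserved library used the 10x Genomics 3′ kit (version 3). The authors aligned reads with STAR 2.5.1b in Cell Ranger 4.0.0, per the submitters' processing notes, to Sscrofa11.1 with the Ensembl annotation, and deposited raw UMI counts per gene and barcode without normalization. Genes were matched by symbol, and GJB6 and GJA1 were listed. GJB2 is not analysed here.

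Cells within 4500 genes, 30000 UMIs and 10% mitochondrial UMIs (13 protein-coding genes) were integrated with Seurat 5.3.0 (2000 variable features without the 21 connexin and pannexin genes, 30 components, resolution 0.8), and all barcodes were clustered likewise. Clusters were named from fixed marker lists, needing at least 3 markers in 10% of cells. This scoring rule was set after the clusters were seen, and the keratinocyte-like class joins the epidermal stem, differentiated and follicle lists. In the filtered cells 1 cluster of 24 cells stayed unnamed, and over all barcodes 3 clusters did (681 fresh and 255 cryopreserved barcodes). Scrublet (scanpy 1.11.5) marked 3 fresh and 38 cryopreserved cells, which were kept in the main results.

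CPM of whole libraries used edgeR 4.0.16 TMM factors, or total UMIs or DESeq2 1.42.0 size factors as alternatives. CPM of classes, clusters and cells is per 1000000 of their own UMIs. Intervals are exact Poisson, exact binomial and, for ratios, exact conditional binomial. A count of 0 was read with a floor of 3 counts. Background counts used genes with at least 200 UMIs over both libraries and called a gene at 2-fold or more. The scripts were tested on simulated data. Members and lists were chosen with earlier results of these data known. The named genes were the members, the family, partner and stress lists, the 5 genes most correlated with each member, the cells with most UMIs of each, and adjacent genes. Other genes of the GJB6-rich cells were named after their values were seen.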

Additional observations from a re-analysis of the deposited data

Results flagged for a closer look

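The log2 ratio of GJA1 had opposite signs in 2 cell classes. Cryopreserved over fresh, it was -0.083 in fibroblast-like cells (200 and 189 CPM) and 0.33 in keratinocyte-like cells (228 and 287 CPM). Both counting intervals exclude 0, that of the fibroblast-like cells narrowly. Values of classes are scaled by their own UMIs without TMM factors, and no TMM-scaled fibroblast-like ratio is given. Without the GJB6-rich cells the keratinocyte-like value was 0.19. GJC1 had a log2 ratio of 0.20 in SMC-like cells (359 and 412 CPM) and -0.24 in fibroblast-like cells (23.2 and 19.7 CPM), with intervals that likewise exclude 0. With 1 library per condition the difference between the classes was not tested.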

How the results depend on the processing

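With 1 library per condition no alternative has a replicate check. No paired analysis was possible because each group has 1 library. No ratio of GJB6 changed sign under any set of cells or scaling that was run. The log2 ratio of GJB6 (3.49) moved by more than its counting interval to 1.59 over all barcodes and 1.58 without the gene and UMI maxima. Under alternatives chosen after seeing the data it was 1.15 without the GJB6-rich cells, 2.42 over all barcodes without the highest cell of each library, 0.79 over all barcodes without the GJB6-rich cells and 1.52 in keratinocyte-like cells of all barcodes. The GJA1 ratio (0.08) became 0.14 without the mitochondrial limit, which is also the value with genes of prefix MT since that set removed no barcode, 0.0058 without the gene and UMI maxima, 0.32 in keratinocyte-like cells and, added after seeing the data, 0.26 in keratinocyte-like cells of all barcodes, 0.018 without the GJB6-rich cells and 0.18 in keratinocyte-like cells without them. With all barcodes clustered, the fresh CPM of GJB6 in keratinocyte-like cells became 9.76 and that of GJA1 in endothelial-like cells 542, and the other class levels stayed within their intervals at resolutions 0.4 and 1.2 and without integration. Thinning left out cells below its target and drew UMIs at random, with no spread over repeated draws given. The share of cells with a GJA1 UMI rises with depth by construction. Thinned to 1000 UMIs it was 15.2% and 21.3% in fresh and cryopreserved keratinocyte-like cells, with intervals that do not overlap. Thinned to 2000 UMIs it was 35.5% and 36.7% in fresh and cryopreserved keratinocyte-like cells, 26.4% and 26.6% in fibroblast-like cells, 51.8% and 56.1% in endothelial-like cells and 23.8% and 30.8% in lymphatic-like cells. Unthinned it was 78.9% and 75.8%, 68.1% and 65.5%, 77.6% and 69.3%, and 52.3% and 48.1% in the same order, and for GJB6 in keratinocyte-like cells 2.08% and 2.36%. With a minimum of 50 UMIs, 409 genes instead of 125 were past a 2-fold difference. Beyond these constructions, the cause was not tested.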
